A study of Rattus norvegicus with 9 samples.

Results

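The 35 genes described here encode the enzymes of cholesterol and fatty acid synthesis, the proteins that control those enzymes and 5 proteins that move cholesterol or other lipids. They were given as a list of gene symbols and matched to probe sets by the symbol in the array's annotation, and each gene was read from its probe set of highest mean. A probe set that passed the filter on low signal was found for 33 of the 35 genes, out of 10973 genes tested in all. Hmgcs1 and Npc1 are not analysed here. The 33 genes comprise 17 enzymes of sterol synthesis, 4 regulators, 8 enzymes of fatty acid synthesis and desaturation and 4 transport genes.

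The samples were uteri of female rats, and total RNA was hybridised to Affymetrix rat arrays. In the treatment group, electroacupuncture was given at the points Guanyuan and Sanyinjiao in sessions of 15 min on 7 consecutive days, then ovulation was induced while acupuncture went on. In the model group, ovulation was induced without acupuncture. Induction meant intraperitoneal pregnant horse serum gonadotropin (PMSG) at 0.5 U per rat and, 48 h later, an equal amount of HCG. Control rats received neither. Each group had 6 of the 18 rats and 3 arrays, and the labels do not say whether an array is 1 rat or a pool, so the p-values measure the spread between arrays. The sources used here do not give the strain, the age of the rats, the time of tissue collection or the oestrous stage of the control rats. The group names treatment, model and control are those of the labels, and "induced" is used here for the 6 treatment and model arrays together.

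Cells build cholesterol from acetyl-CoA through mevalonate, isoprenoid units and squalene, which is closed into lanosterol and then trimmed to cholesterol. The genes of this route are switched on together by the SREBP transcription factors, which leave the endoplasmic reticulum to be cut free when membrane sterol is low. Insig proteins hold them back in the endoplasmic reticulum when membrane sterol is high. Fatty acids are made from citrate by Acly, Acaca and Fasn, lengthened by Elovl enzymes and given double bonds by Scd and Fads enzymes. In the rodent uterus the luminal and glandular epithelium grows and regresses with oestrogen and progesterone, and it needs membrane lipid as it grows.

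Values are the deposited intensities on a linear scale, whose medians ran from 23.56 to 24.02 over the 9 arrays. Fold changes are differences of log2(intensity + 16), which understate the change of dim genes, from 1 limma fit to all arrays, and a gene passed at a Benjamini-Hochberg adjusted p under 0.05 over the 10973 genes. Control 43 stood apart from its group. Over these genes its log2 values correlated at 0.886 with control 41 and at 0.916 with control 42, against 0.980 between those 2 arrays, and at 0.972 with model 21. Control 43 also had the highest ratio of 3′ to 5′ signal for Actb, 7.84, against 5.07 to 7.00 on the other arrays. It did not stand out in the same ratio for Gapdh, where it had 1.30 and model 21 the highest value, 1.39, or for Hk1, where it had 1.82 and treatment 31 the highest value, 2.44. Most comparisons with the controls are also given without control 43. That array was singled out from its values in these same data, and leaving it out leaves 2 control arrays. Calls over all genes in model over control then went from 3 to 1388. Genes said to fall, rise or pass without control 43 describe that setting alone. All markers of smooth muscle (14 of 14), and 17 of 18 of epithelium, passed the filter on low signal. The summed intensity of the 17 epithelial markers was 4795 to 7325 in treatment uteri, 4223 to 5703 in model uteri, and 21594, 15897 and 5301 in controls 41, 42 and 43. Of the 11 markers of steroid-making ovary cells, 9 were on the array. Hsd3b1, Cyp17a1, Cyp19a1, Inha and Star were below the filter on every array, and Cyp11a1, Lhcgr, Inhba and Foxl2 passed it. None of these 4 passed a test with all 9 arrays. Without control 43, Lhcgr was called higher in model and in induced over control, where 5.72% and 3.98% of all genes were.

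**Figure D1:**
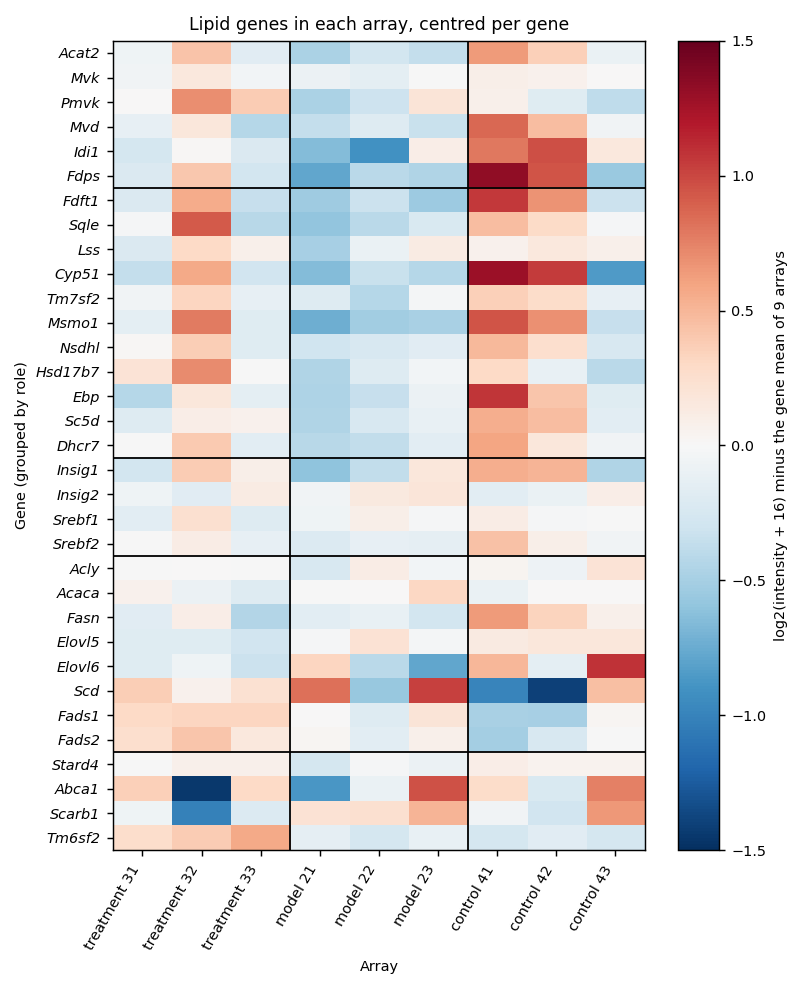
Level of the 33 genes (rows, grouped by role and separated by lines: early mevalonate steps, squalene and sterol steps, regulators, fatty acid enzymes, transport) on each of the 9 arrays (columns), as log2(intensity + 16) minus the gene's mean over the arrays. Most sterol synthesis rows are high on controls 41 and 42 and on treatment 32, and low on the model arrays.

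Most genes of sterol synthesis had lower signal in the model uteri than in 2 of the 3 control uteri, and most had a mean in treatment uteri between those of the model and control groups. All 17 had a lower mean in the model group than in the control group, with a median log2 fold change of -0.65, against a median of 0.02 over all genes tested, of which 46.5% were lower. No single gene passed the test in that comparison with all 9 arrays, where 0.0273% of all genes passed in either direction. Without control 43, an array singled out from these same data, 10 of the 17 fell, where 6.93% of all genes fell. Against the model group, all 17 had a higher mean in the treatment group, with a median of 0.39, where 38.9% of all genes were higher, and none passed. The 17 genes are switched on together and were measured on the same arrays, so their number is not a number of independent observations. In these bulk samples, fewer cells of a type cannot be told apart from less RNA per cell.

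Among the early steps, Idi1, which interconverts the isoprenoid building blocks, had the smallest p-value. Its intensity was 1101, 1345 and 1139.5 in treatment uteri, 840.0, 699 and 1421 in model uteri and 2306, 2600.3 and 1477 in control uteri. Every control array was above all 6 induced arrays, the lowest control lying just above model 23. Idi1 was the 1 member of the 33 with this separation, against 3.69% of all genes. The log2 fold change of model over control was -1.12 (SE 0.28, adjusted p 0.252), and that of treatment over control -0.79 (SE 0.28, adjusted p 0.228). Without control 43 they were -1.36 (adjusted p 0.0201) and -1.03 (adjusted p 0.0633).

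Fdps joins isoprenoid units into farnesyl diphosphate, the branch point between sterols and other isoprenoids. It measured 339, 533 and 326 in treatment uteri, 225, 295 and 287 in model uteri and 1024, 778 and 265 in control uteri. The treatment arrays were all above the model arrays, controls 41 and 42 were above both groups, and control 43 lay among the model arrays. The log2 fold change of model over control was -1.12 (SE 0.44, adjusted p 0.372) with control 43 and -1.68 (SE 0.23, adjusted p 0.00776) without it. Treatment over control was -0.60 (adjusted p 0.504) with control 43 and -1.16 (adjusted p 0.0268) without it.

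Mvd, which makes isopentenyl diphosphate, showed the same order of groups at low signal. It measured 23.9, 32.6 and 16.3 in treatment uteri, 17.7, 21.99 and 18.3 in model uteri and 62.6, 43.9 and 25.8 in control uteri, and all control arrays were above all model arrays. Its log2 fold change was -0.72 for model over control (adjusted p 0.308, and 0.0179 without control 43). For treatment over control it was -0.55 (adjusted p 0.268, and 0.042 without control 43). Acat2, here the cytosolic enzyme that joins acetyl-CoA units at the start of the route, measured 54.6, 83.2 and 49.6 in treatment uteri, 36.9, 44.8 and 41.2 in model uteri and 98.7, 78.1 and 52.8 in control uteri. All model arrays were below all treatment and all control arrays, which overlapped each other. Acat2 was -0.67 in model over control (adjusted p 0.301, and 0.024 without control 43).

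The 2 kinases between them showed this order less clearly. Mvk measured 23.9, 29.98 and 24.3 in treatment uteri, 22.97, 21.2 and 25.3 in model uteri and 28.04, 27.3 and 25.6 in control uteri, a narrow range with all control arrays just above all model arrays. Pmvk, the next kinase, measured 96.8, 166 and 129.8 in treatment uteri, 64.99, 74.2 and 112 in model uteri and 102, 83.01 and 70.2 in control uteri. The 2 highest Pmvk values were treatment arrays and the lowest was model 21. Pmvk was 0.56 in treatment over model (SE 0.22, adjusted p 0.324) and -0.03 in model over control (SE 0.22), or -0.14 without control 43 (adjusted p 0.727).

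The committed sterol branch starts with Fdft1, which makes squalene. Fdft1 measured 60.9, 116 and 54.1 in treatment uteri, 45.6, 55.2 and 45.1 in model uteri and 170.4, 126 and 55.4 in control uteri. Controls 41 and 42 and treatment 32 stood above the other 6 arrays, and the lowest control, 43, was just above the highest model array. The log2 fold change of model over control was -0.94 (SE 0.36, adjusted p 0.358) and, without control 43, -1.34 (adjusted p 0.02). Sqle, the oxygenase that acts on squalene and a control point of the route, measured 78.4, 166 and 56.01 in treatment uteri, 47.7, 56.5 and 66.1 in model uteri and 116, 101 and 78.6 in control uteri. Its highest value was treatment 32, and all control arrays were above all model arrays. Sqle did not pass with or without control 43, at -0.65 (adjusted p 0.423) and -0.78 (adjusted p 0.163) in model over control.

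Lss, which closes the ring to lanosterol, measured 51.2, 79.5 and 66.4 in treatment uteri, 39.2, 56.8 and 68.98 in model uteri and 65.4, 70.8 and 66.2 in control uteri. The 3 groups overlapped. It was the 1 sterol gene in which control 43 was not the lowest control. Cyp51, the lanosterol demethylase, varied more than any other sterol gene among the controls. It measured 185, 366 and 195 in treatment uteri, 148, 189 and 176 in model uteri and 611, 518 and 127 in control uteri, so the group of controls held both the 2 highest arrays and the lowest. Model over control was -0.96 (SE 0.52, adjusted p 0.462) with all arrays and -1.64 (SE 0.27, adjusted p 0.0125) without control 43. Treatment over control without control 43 was -1.19 (adjusted p 0.0403), against -0.52 (adjusted p 0.64) with it.

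The next enzymes remove methyl groups from the sterol. Msmo1, the methylsterol oxidase, had the largest log2 fold change of treatment over model among the 17 sterol genes. It measured 73.1, 153 and 70.7 in treatment uteri, 43.5, 52.8 and 54.6 in model uteri and 174, 142 and 61.7 in control uteri. All treatment and all control arrays were above all model arrays. Msmo1 was 0.72 in treatment over model (SE 0.36, adjusted p 0.376), and 0.41 without treatment 32. In model over control it was -1.004 (SE 0.36, adjusted p 0.343), and -1.39 without control 43 (adjusted p 0.0207). Nsdhl, a dehydrogenase of the same demethylation, measured 76.6, 102 and 64.4 in treatment uteri, 58.3, 61.5 and 65.4 in model uteri and 112, 92.7 and 61.7 in control uteri. Controls 41 and 42 and treatment 32 were again the 3 highest. Nsdhl was -0.40 in model over control (adjusted p 0.431, and 0.0475 without control 43). Hsd17b7, the ketosteroid reductase of this step, measured 31.3, 51.1 and 25.05 in treatment uteri, 14.2, 20.1 and 23.9 in model uteri and 34.9, 22.05 and 15.1 in control uteri. The treatment arrays were all above the model arrays, and the controls overlapped both groups. Hsd17b7 was 0.53 in treatment over model (SE 0.22, adjusted p 0.335), and 2 of the low arrays, 1 model and 1 control, were under the filter.

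The remaining enzymes of the route shift, form or reduce double bonds. Ebp, the sterol isomerase, measured 90.4, 145 and 113 in treatment uteri, 88.1, 96.4 and 119 in model uteri and 284, 175 and 109.8 in control uteri. Controls 41 and 42 were the 2 highest arrays. Sc5d, a sterol desaturase, measured 45.9, 59.7 and 57.9 in treatment uteri, 35.9, 44.1 and 49.5 in model uteri and 87.1, 81.8 and 47.7 in control uteri, with the same 2 controls highest. Model over control was -0.73 for Ebp (adjusted p 0.382, and 0.0301 without control 43), and -0.55 for Sc5d (adjusted p 0.33, and 0.0131 without control 43). Dhcr7, the reductase that yields cholesterol, measured 57.9, 81.5 and 50.7 in treatment uteri, 39.8, 41.3 and 50.6 in model uteri and 95.4, 67.3 and 55.8 in control uteri. Every model array was below every treatment array and every control array, the closest pair being model 23 and treatment 33. Dhcr7 was -0.55 in model over control (adjusted p 0.33, and 0.0515 without control 43) and 0.39 in treatment over model (adjusted p 0.372). Tm7sf2, a sterol reductase, measured 41.4, 58.2 and 38.7 in treatment uteri, 36.2, 28.4 and 42.1 in model uteri and 60.02, 55.8 and 38.5 in control uteri, and the groups overlapped.

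**Figure D2:**
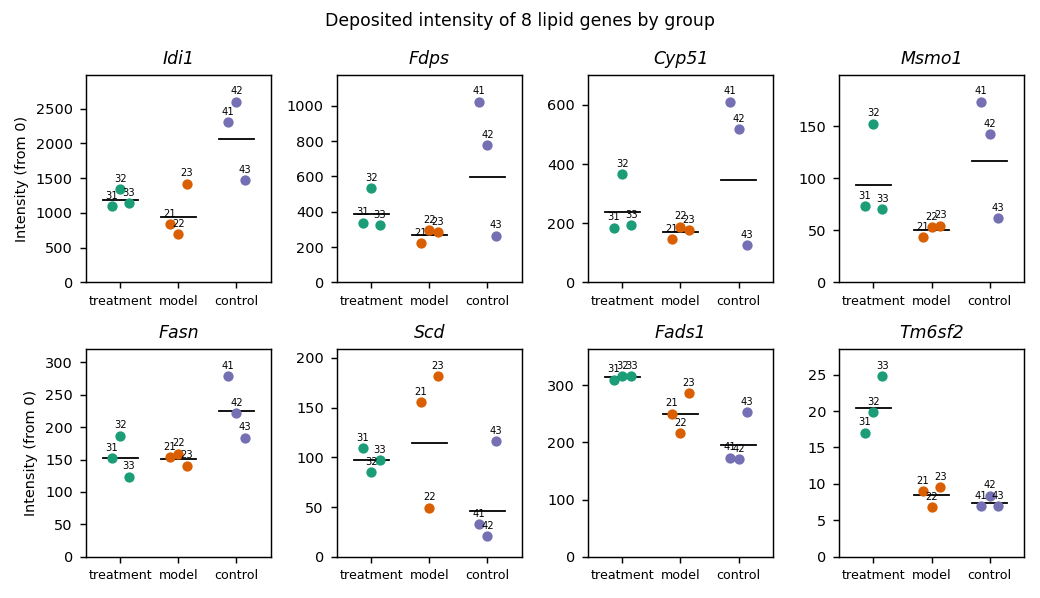
Deposited intensity (vertical axis, linear and starting at 0) of 8 genes on each array, by group. Points are arrays labelled with their number and lines are group means taken on the log2(intensity + 16) scale. Idi1 is highest in the control arrays, Fdps, Cyp51 and Msmo1 are high in controls 41 and 42 and not in control 43, and Tm6sf2 is above 15 in treatment arrays only.

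The order of the arrays was shared by most of the 17 sterol genes. Control 43 was below both other controls in 16 of the 17, against 37.1% of all genes, and it lay within the range of the 6 induced arrays in 15 of the 17, against 65.3% of all genes. Controls 41 and 42 were both above every model array in 14 of the 17, against 21.1% of all genes, and above every treatment array in 7 of the 17, against 26.7%. Treatment 32 was the highest of the 6 induced arrays in 16 of the 17, with Idi1 the exception, against 18.2% of all genes. The median rank of the 17 genes, with 1 the highest of 9 arrays, was 5, 2 and 6 on treatment 31, 32 and 33, 9, 7 and 5 on model 21, 22 and 23, and 1, 3 and 6 on controls 41, 42 and 43.

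In model over control, 8 of the 17 sterol genes were lower without overlap of the 3 arrays on each side, against 6.73% of all genes in that direction and none higher, against 7.8%. These were Acat2, Mvk, Mvd, Idi1, Fdft1, Sqle, Msmo1 and Dhcr7. At an unadjusted p under 0.05, 9 of the 17 were lower, against 6.1% of all genes, and with 1 array left out this count ran from 3 to 12. The sterol genes that fell without control 43 were Fdps, Cyp51, Sc5d, Mvd, Fdft1, Idi1, Msmo1, Acat2, Ebp and Nsdhl, where 6.93% of all genes fell. The median of the 17 was then -0.78. Without control 41 it was -0.42, with 15 of the 17 lower and none passing.

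In treatment over control, 15 of the 17 were lower and the median was -0.23, against -0.04 over all genes, of which 57.8% were lower. None of the 17 passed, where 0.51% of all genes passed in either direction. At an unadjusted p under 0.05 Pmvk was higher, against 6.54% of all genes, and Idi1 and Mvd were lower, against 10.8%. Idi1 was lower without overlap, against 13.9% of all genes. Without control 43, Fdps, Cyp51 and Mvd fell, where 5.08% of all genes fell, and the median was -0.43. Without control 41 the median was -0.06, and without treatment 32 it was -0.41. Treatment and model were set against the same 3 control arrays, so the 2 comparisons share whatever is particular to those arrays.

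With the 6 induced arrays pooled against the controls, none of the 17 passed, where 0.574% of all genes did. Of the 17, 15 were lower, against 50.7% of all genes, and the median was -0.42. At an unadjusted p under 0.05, 6 were lower, against 9.28% of all genes. Fdps, Cyp51, Sc5d, Mvd, Idi1, Fdft1, Ebp, Msmo1 and Acat2 fell without control 43, where 7.38% of all genes fell.

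In treatment over model, 5 of the 17 were higher without overlap, namely Acat2, Fdps, Msmo1, Hsd17b7 and Dhcr7, against 8.11% of all genes. No gene among the 10973 passed (0.0%), and at an unadjusted p under 0.05 the 17 held Pmvk and Hsd17b7 alone, against 4.57% of all genes in that direction. All 17 stayed above 0 with any 1 array left out. Their median was 0.19 without treatment 32 and 0.34 to 0.51 without any 1 of the other 8 arrays. The log2 standard errors of this difference were 0.07 to 0.52 for single genes, so the test does not show that the groups had the same level.

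**Figure D3:**
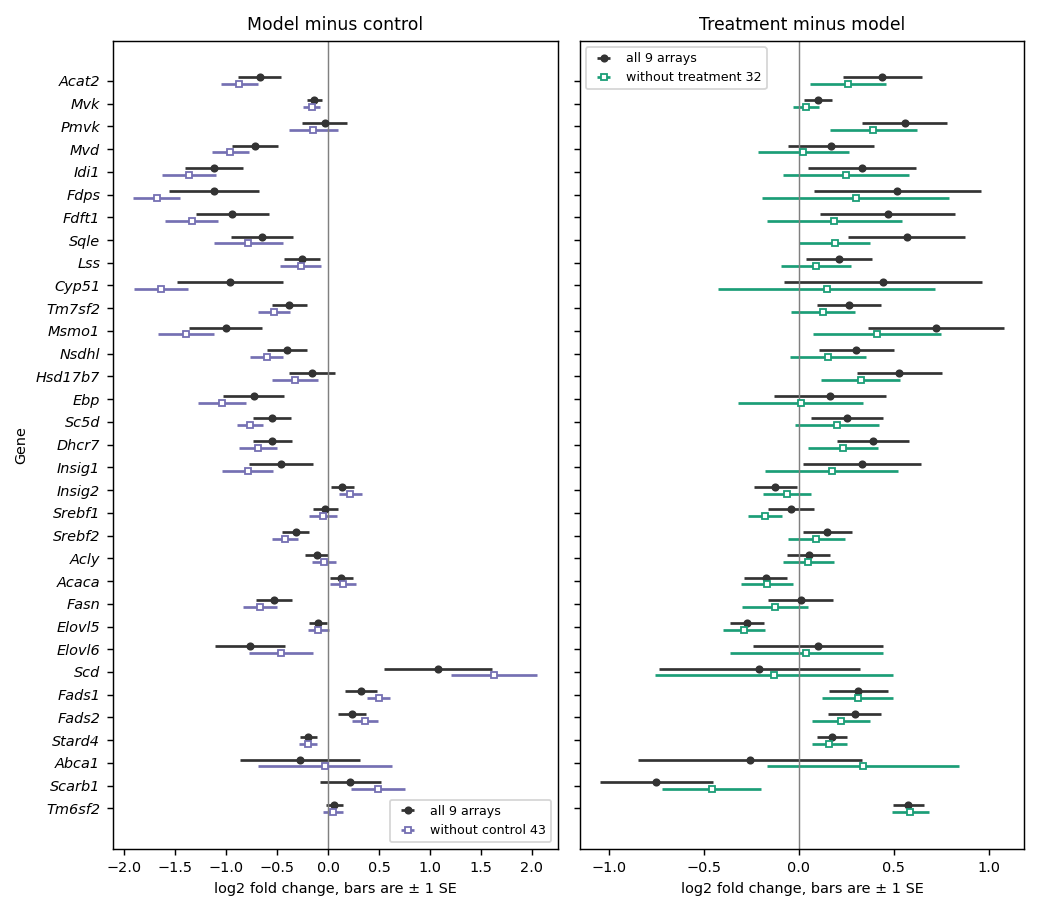
Log2 fold change (horizontal axis, bars are 1 SE either way) of the 33 genes (rows) in model minus control, with all 9 arrays and without control 43, and in treatment minus model, with all 9 arrays and without treatment 32. The 17 sterol synthesis genes, from Acat2 down to Dhcr7, lie below 0 on the left and above 0 on the right under both settings.

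The epithelial markers moved with the sterol genes across the arrays. The mean centred log2 level of the 17 sterol genes was -0.12, 0.41 and -0.14 in treatment uteri, -0.48, -0.34 and -0.18 in model uteri, and 0.64, 0.41 and -0.21 in controls 41, 42 and 43. For the 17 epithelial markers it was -0.52, 0.03 and -0.02 in treatment uteri, -0.69, -0.44 and -0.19 in model uteri, and 1.41, 1.02 and -0.59 in the same controls. Both were highest on control 41 and lowest on model 21, and control 43 was among the low arrays in both. Treatment 32 was as high as control 42 in sterol genes and far below it in epithelial markers. Of the epithelial markers, 16 of 17 were lower in model than in control with a median of -0.68, and 13 of 17 were higher in treatment than in model with a median of 0.26. Without control 43 the median of model over control was -1.58, and 12 of the 17 markers fell, where 6.93% of all genes fell. The oestrogen response genes of the rat uterus summed to 5347 to 7098 in treatment uteri, 2507 to 5391 in model uteri, and 8915, 7528 and 2445 in controls 41, 42 and 43. Such a sum follows the brightest genes, and the 9 genes tested went in mixed directions. In model over control 6 were lower and 3 higher (median -0.12), and in treatment over control 4 were lower and 5 higher (median 0.06). In treatment over model 7 were higher and 2 lower (median 0.47). The part of the epithelial markers or of the oestrogen response genes in the sterol result was not tested.

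**Figure D4:**
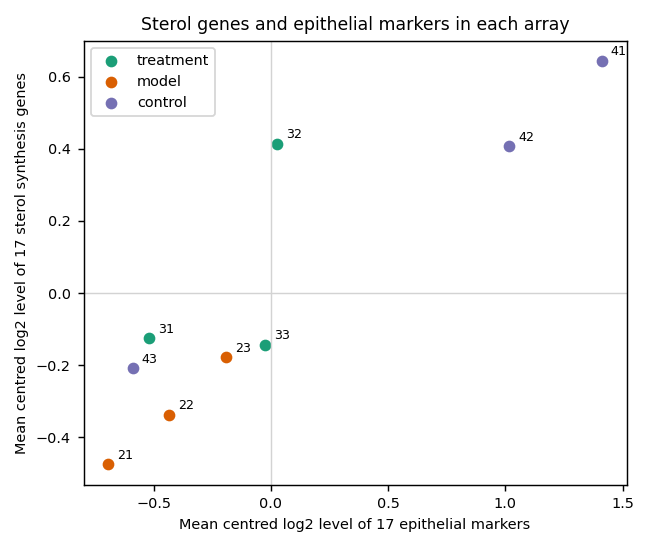
Mean centred log2 level of the 17 sterol synthesis genes (vertical axis) against that of the 17 epithelial markers (horizontal axis) on each array, labelled with its number. Controls 41 and 42 are high in both, control 43 lies among the model and treatment arrays, and treatment 32 is high in sterol genes at a middle level of epithelial markers.

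The promoters of these genes are shown because the sterol genes moved together across arrays and SREBP works with the factor NF-Y at a CCAAT box. RefSeq promoters of the GRCr8 build, 250 bases before to 50 after the annotated start, were matched by symbol for 27 of the 35 genes. Of these, 15 were among the sterol genes, with or without a probe set over the filter. The letters CCAAT on either strand were in 12 of those 15 (80.0%) and in 19 of the 27 (70.4%), against 37.7% of all 27457 promoters. The Sp1 letters GGGCGG on either strand were in 13 of the 15 and in 22 of the 27, against 34.9% of all promoters. The 2 overlapping SREBP motifs, TCACNCCAC and ATCACNCCA, were searched on both strands and found in 1 of the 27, Srebf2, as ATCACCCCA at -157 to -149, against 1.62% of all promoters. The E-box CACGTG was in 4 of the 27, Abca1, Elovl5, Insig1 and Sc5d, against 6.65%. A match describes these windows and is not a measured binding site. The 4 genes with the smallest p-values for induced over control that have a promoter in the table are printed 5′ to 3′, with CCAAT or its reverse complement in capitals. Position 0 is the first base of the annotated start.
Idi1, chr17:66547475-66547774, minus strand: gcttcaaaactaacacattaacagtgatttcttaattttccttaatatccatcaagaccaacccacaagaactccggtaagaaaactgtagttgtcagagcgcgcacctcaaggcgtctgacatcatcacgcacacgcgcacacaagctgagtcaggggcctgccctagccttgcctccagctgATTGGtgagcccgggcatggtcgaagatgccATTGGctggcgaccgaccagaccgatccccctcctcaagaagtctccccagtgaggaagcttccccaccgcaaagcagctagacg
Mvd, chr19:67414925-67415224, minus strand: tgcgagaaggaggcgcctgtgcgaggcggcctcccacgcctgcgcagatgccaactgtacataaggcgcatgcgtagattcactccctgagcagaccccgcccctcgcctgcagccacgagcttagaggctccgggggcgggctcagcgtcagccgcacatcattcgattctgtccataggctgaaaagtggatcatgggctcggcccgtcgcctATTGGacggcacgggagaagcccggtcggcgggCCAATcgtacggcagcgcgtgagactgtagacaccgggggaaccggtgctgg
Fads1, chr1:216252442-216252741, plus strand: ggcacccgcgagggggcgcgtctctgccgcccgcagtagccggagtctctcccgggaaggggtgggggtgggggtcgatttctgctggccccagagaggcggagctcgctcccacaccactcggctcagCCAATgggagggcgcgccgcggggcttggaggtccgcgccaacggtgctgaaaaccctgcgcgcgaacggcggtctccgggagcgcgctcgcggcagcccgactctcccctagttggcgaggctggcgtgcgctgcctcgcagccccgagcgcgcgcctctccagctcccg
Tm6sf2, chr16:19385311-19385610, minus strand: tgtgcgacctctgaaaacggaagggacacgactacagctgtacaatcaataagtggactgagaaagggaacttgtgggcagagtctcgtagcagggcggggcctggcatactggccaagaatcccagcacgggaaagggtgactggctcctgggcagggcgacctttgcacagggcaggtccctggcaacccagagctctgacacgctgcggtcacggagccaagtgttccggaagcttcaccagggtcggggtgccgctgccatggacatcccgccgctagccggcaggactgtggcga
Idi1 carries the box as ATTGG at -66 to -62 and at -35 to -31. Mvd carries it at -35 to -31 and across the start at -2 to 2, and Fads1 carries it at -121 to -117. The Tm6sf2 window held none.

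Among the regulators, Insig1, which retains the SREBP complex in the endoplasmic reticulum and is itself an SREBP target, followed the sterol enzymes. It measured 150.0, 246 and 197 in treatment uteri, 116, 139 and 210.2 in model uteri and 275, 269 and 130.3 in control uteri. Its 2 highest arrays were controls 41 and 42, and model 21 was the lowest. Its log2 fold change in model over control was -0.46 (SE 0.31, adjusted p 0.525), and -0.79 without control 43 (adjusted p 0.0772). Srebf2, which encodes the SREBP of the sterol genes, measured 112, 123 and 103 in treatment uteri, 95.3, 103 and 101 in model uteri and 159, 121 and 108 in control uteri. All control arrays were above all model arrays, and the difference was small, at -0.32 in model over control (SE 0.13, adjusted p 0.386, and 0.0636 without control 43).

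Srebf1, which encodes the SREBP forms that favour fatty acid genes, measured 53.5, 75.5 and 51.9 in treatment uteri, 58.4, 66.4 and 60.6 in model uteri and 67.9, 60.7 and 61.2 in control uteri. The arrays of the 3 groups overlapped. Insig2 measured 86.8, 79.9 and 101 in treatment uteri, 87.4, 103 and 106 in model uteri and 80.2, 84.6 and 99.5 in control uteri, without the pattern of Insig1. No regulator passed in any comparison, with or without control 43.

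The fatty acid genes did not share 1 direction. In model over control 4 of the 8 were higher and 4 lower, with a median of 0.01. The median was -0.05 in treatment over control and 0.03 in treatment over model. Without control 43 it was 0.05 in model over control and -0.0089 in treatment over control. The mean of Fasn, the fatty acid synthase, was below that of the controls in both induced groups, and the means of the 3 desaturases were above it. None of the 8 passed with all 9 arrays.

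Fasn measured 152, 187 and 124 in treatment uteri, 154, 159 and 141 in model uteri and 279, 222 and 184 in control uteri. All controls were above all model arrays, and treatment 32 was just above control 43. Its log2 fold change was -0.53 in model over control (SE 0.17, adjusted p 0.316) and -0.52 in treatment over control (SE 0.17, adjusted p 0.197). Without control 43, Fasn fell in the model group (-0.67, adjusted p 0.0396) and had an adjusted p of 0.0595 in the treatment group. The enzymes that feed Fasn did not separate the groups. Acly, which makes cytosolic acetyl-CoA from citrate, measured 318, 319.9 and 319 in treatment uteri, 268, 348 and 311 in model uteri and 331, 302 and 372 in control uteri. Acaca, which carboxylates it, measured 146, 131 and 120.2 in treatment uteri, 139, 140.1 and 178 in model uteri and 129.9, 141 and 140.4 in control uteri. In both genes the groups overlapped, and the log2 fold change of model over control was -0.11 for Acly and 0.13 for Acaca, or -0.04 and 0.14 without control 43.

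Fads1 and Fads2, the desaturases of polyunsaturated fatty acids, were highest in treatment uteri. Fads1 measured 309.9, 316 and 316 in treatment uteri, 251, 216 and 286 in model uteri and 173, 171 and 254 in control uteri. The 3 treatment arrays lay close together and above all 6 other arrays, while model and control arrays overlapped. Fads1 was 0.64 in treatment over control (SE 0.16, adjusted p 0.123) and 0.31 in treatment over model (SE 0.16, adjusted p 0.38). Without control 43 it rose in treatment (0.81, adjusted p 0.00861) and in model (0.50, adjusted p 0.0333) over control.

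Fads2 measured 92.4, 106 and 85.7 in treatment uteri, 76.96, 65.7 and 79.9 in model uteri and 47.9, 60.9 and 74.5 in control uteri. The treatment arrays were again above all others. Fads2 was 0.53 in treatment over control (SE 0.14, adjusted p 0.128), and without control 43 it rose (0.66, adjusted p 0.0237). Higher treatment arrays without overlap were found in 3 of the 33 genes against control (Fads1, Fads2 and Tm6sf2), where 9.39% of all genes were, a share no smaller than that of these genes, and in 9 of the 33 against model, where 8.11% of all genes were.

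Scd, the desaturase that makes monounsaturated fatty acids, was the most variable fatty acid gene. It measured 109, 85.5 and 97.3 in treatment uteri, 155, 49.5 and 182 in model uteri and 32.6, 20.5 and 116 in control uteri. The lowest arrays were controls 41 and 42, and control 43 was above all treatment arrays. Scd was 1.08 in model over control (SE 0.53, adjusted p 0.431), and without control 43 it rose (1.63, adjusted p 0.0454). Scd is also abundant in fat cells. Of the 11 adipocyte markers, 10 were on the array and 7 passed the filter. The 10 summed to 521, 558 and 583 in treatment uteri, 863, 991 and 782 in model uteri and 698, 702 and 637 in control uteri. Every model sum was above every control sum. Within the groups, control 43 had the lowest sum of the controls and their highest Scd. Model 22 had the highest sum of all arrays and the lowest Scd of its group. Lep and Cidec were below the filter on every array, and the part of fat cells in Scd was not tested.

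Elovl5, which lengthens polyunsaturated fatty acids, measured 661, 661 and 615 in treatment uteri, 743, 878 and 736 in model uteri and 828, 847 and 844 in control uteri. All treatment arrays were below all other arrays. It was -0.37 in treatment over control (SE 0.09, adjusted p 0.123) and -0.27 in treatment over model (SE 0.09, adjusted p 0.285). Without control 43, treatment over control was -0.37 (adjusted p 0.078). The second Elovl5 probe set gave the other sign in both, at 0.035 (SE 0.07) and 0.17 (SE 0.07). Its mean intensity was 14.96, near the filter threshold, against 757 for the one used, so its sign is the less certain. Elovl6, which lengthens saturated chains, measured 65.9, 72.6 and 58.7 in treatment uteri, 100.1, 53.98 and 38.3 in model uteri and 115, 68.1 and 181 in control uteri, with control 43 the highest of all arrays. Elovl6 was -0.77 in model over control (SE 0.34, adjusted p 0.406), and -0.46 without control 43.

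Tm6sf2 was the 1 member that passed a test with all 9 arrays. In human and mouse liver and intestine its product helps to load lipid onto lipoproteins. It measured 17.03, 19.9 and 24.8 in treatment uteri, 9.02, 6.84 and 9.54 in model uteri and 6.97, 8.39 and 6.91 in control uteri. The treatment arrays were above all others, and the model and control arrays overlapped at low signal. On the log2(intensity + 16) scale it averaged 5.19 ± 0.15 in treatment uteri, 4.61 ± 0.09 in model uteri and 4.55 ± 0.05 in control uteri (SD, n = 3 each). It rose by 0.64 in treatment over control (SE 0.08, adjusted p 0.0311, and 0.0112 without control 43). Its difference of treatment over model was 0.58 (SE 0.08), with an adjusted p of 0.285. The filter threshold was an intensity of 15.2 to 16.2, so 3 of 3 treatment arrays, 0 of 3 model arrays and 0 of 3 control arrays were over it. The gene was tested only through the group in which it was high, and its passing says little beyond its values. The call was lost without any 1 treatment array, without control 41 or 42 and without model 22, where the adjusted p was 0.0503 to 0.104.

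Of the other transport genes, Stard4, a carrier of free cholesterol and an SREBP target, varied little, at 49.01, 52.7 and 52.7 in treatment uteri, 38.4, 48.4 and 45.1 in model uteri and 53.7, 51.6 and 51.6 in control uteri. All model arrays were below all treatment and control arrays. Model over control was -0.19 (SE 0.08, adjusted p 0.384), and -0.20 without control 43 (adjusted p 0.176). Scarb1, the receptor that takes cholesterol esters from HDL, measured 138, 64.1 and 124 in treatment uteri, 172, 174 and 215 in model uteri and 140.2, 116 and 238 in control uteri. All model arrays were above all treatment arrays, and treatment 32 was the lowest of the 9. Scarb1 was -0.75 in treatment over model (SE 0.30, adjusted p 0.321), and -0.46 without treatment 32.

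Abca1, which exports cholesterol to apolipoproteins, measured 225, 52.5 and 215 in treatment uteri, 86.3, 158 and 349 in model uteri and 211, 145 and 300.4 in control uteri. Its groups overlapped, and treatment 32, high in the sterol synthesis genes, had its lowest value. Treatment over control was -0.53 (SE 0.59, adjusted p 0.677), and it turned to 0.064 without treatment 32. The other Abca1 probe sets, with mean intensities of 65.3 and 17.3 against 194 for the one used, had another sign in model over control. They gave 0.32 and 0.13 there, against -0.27. In treatment over model they gave -0.75 and -0.34, against -0.26. On treatment 32 the 8 endothelial markers summed to 446, against 946 and 975 on the other treatment arrays, and the 9 stromal markers to 7828, against 11973 and 12622. The part of these cells in Abca1 and Scarb1 was not tested.

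Over all 33 genes, 26 were lower in model than in control (median -0.32), 26 were lower in treatment than in control (median -0.13), and 26 were higher in treatment than in model (median 0.25). Without control 43 the first 2 medians were -0.42 and -0.27. At an unadjusted p under 0.05, 0 of the 33 were higher in model over control, against 6.37% of all genes, and 12 were lower, against 6.1%. In treatment over control 4 were higher, against 6.54% of all genes, and 4 lower, against 10.8%. In treatment over model 3 were higher, against 4.57%, and 2 lower, against 10.1%. The shares of lower genes in these 2 comparisons are near or below those over all genes. In induced over control 8 of the 33 had a higher mean, against 49.3% of all genes. At an unadjusted p under 0.05, 3 of them were higher there, against 6.08% of all genes, and 9 lower, against 9.28%, and none of the 33 was higher without overlap, against 2.58%. Without control 43, 13 of the 33 passed in model over control, 11 of them lower and Fads1 and Scd higher. Of all genes, 6.93% were called lower there and 5.72% higher. In treatment over control 6 passed, Fdps, Cyp51 and Mvd lower and Fads1, Fads2 and Tm6sf2 higher. Of all genes, 5.08% were called lower there and 1.49% higher. In induced over control 14 passed, 10 of them lower, where 7.38% of all genes were called lower. The 4 higher genes were Fads1, Fads2, Scd and Tm6sf2, where 3.98% of all genes were called higher. Of the 33 genes, 16 had more than 1 probe set over the filter. Their 19 other probe sets had the sign of the one used in 16 cases for model over control, in 14 for treatment over control and in 14 for treatment over model.

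Other genes of the pathways gave no passing gene with all 9 arrays. Of 26 other SREBP pathway genes, 16 were tested, and 13 were lower in model than in control with a median of -0.10. Without control 43, 9 of the 16 were lower and the median was -0.027. Tmem97, a sterol-regulated membrane protein, measured 96.6, 103 and 67.8 in treatment uteri, 69.7, 108 and 72.5 in model uteri and 167, 136 and 114 in control uteri. Every control was above every induced array, and induced over control was -0.61 (SE 0.17, adjusted p 0.18, and 0.0449 without control 43). Fabp5, a fatty acid carrier, went the other way, at 266, 236 and 804 in treatment uteri, 556, 384 and 539.8 in model uteri and 74.9, 59.9 and 142 in control uteri. Every induced array was above every control, and induced over control was 2.10 (SE 0.39, adjusted p 0.0675, and 0.0125 without control 43).

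The genes of cholesterol efflux, storage and breakdown had mostly lower means in treatment than in model uteri, and none passed. Of the 22, 19 were tested, and 14 were lower in treatment than in model with a median of -0.18, where 61.1% of all genes were lower. Without model 23 the median was -0.08. Lower treatment arrays without overlap were found in 8 of the 19, against 19.9% of all genes, and 8 had an unadjusted p under 0.05 in that direction, against 10.1%. In either direction 9 of the 19 had such a p, and with 1 array left out this count ran from 4 to 9, with 4 without treatment 32, 5 without model 22 and 6 without model 23. The 8 lower genes were Lipa, Mylip, Nr1h3, Abcg1, Cyp27a1, Apoe, Lcat and Lrp1, of which Nr1h3 is an LXR receptor that senses oxysterols. Nr1h3 measured 15.6, 12.3 and 23.7 in treatment uteri, 32.7, 31.4 and 25.8 in model uteri and 20.2, 17.2 and 29.6 in control uteri. On treatment 31 and 32 it was under the filter threshold. Lipa, the lysosomal lipase that frees cholesterol, measured 157, 123 and 165 in treatment uteri, 218, 211 and 218 in model uteri and 202, 207 and 219.9 in control uteri. Treatment was below model on every array in both genes, at -0.48 (SE 0.15, adjusted p 0.285) for Nr1h3 and -0.51 (SE 0.11, adjusted p 0.285) for Lipa.

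Apoe, an apolipoprotein that macrophages secrete, measured 519, 155 and 473 in treatment uteri, 564, 1862 and 1044 in model uteri and 509.8, 407 and 1232 in control uteri, lowest on treatment 32 and highest on model 22. Of the 10 macrophage and leukocyte markers on the array, 9 passed the filter and Itgam was below it on every array. The 10 summed to 1673, 1152 and 1613 in treatment uteri and 1083, 4334 and 2709 in model uteri. In controls 41, 42 and 43 they summed to 3630, 2838 and 1450. Model 22 was the highest array in both Apoe and this sum, and treatment 32 was the lowest of its group in both. Among the controls, control 43 had the highest Apoe and the lowest sum. The part of these cells in Apoe was not tested.

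Of 20 genes of fatty acid oxidation, 17 were tested and none passed with all 9 arrays. Acadm, the dehydrogenase of medium-chain fatty acids, measured 301, 393 and 382 in treatment uteri, 405, 494 and 396 in model uteri and 968, 938 and 583 in control uteri. All 6 induced arrays were below all controls, and induced over control was -1.02 (SE 0.18, adjusted p 0.0531), and -1.25 without control 43 (adjusted p 0.00227). Cpt1b, the muscle form of the enzyme that admits fatty acids to mitochondria, lay higher, at 46.3, 54.6 and 63.7 in treatment uteri, 46.1, 49.2 and 68.4 in model uteri and 21.8, 27.3 and 32.7 in control uteri. Every induced array was above every control, at 0.71 (SE 0.13, adjusted p 0.0637, and 0.0139 without control 43). The 14 smooth muscle markers summed to 37029, 35894 and 30408 in treatment uteri and 37709, 34580 and 31921 in model uteri. In controls 41, 42 and 43 they summed to 19913, 32054 and 28774. Within each induced group Cpt1b was highest on the array with the lowest sum, while among the controls both were lowest on control 41. The part of smooth muscle in Cpt1b was not tested.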

How the data were processed

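Total RNA of rat uterus was hybridised to 9 Affymetrix arrays. The deposited values are intensities of 31099 probe sets, made with MAS5, per the submitters' processing notes. The sources used here do not give the settings of that step or any scaling. Of the 31042 probe sets that are not controls, the platform annotation names 1 gene for 20826, several for 436 and none for 9780. Probe sets under the 40th percentile of their array in more than 6 arrays were dropped, and each of the 10973 remaining genes was read from its probe set of highest mean. limma 3.58.1 in R 4.3.3 (lmFit, trended eBayes, two-sided, with 6 residual degrees of freedom) was fitted to log2(intensity + 16) and tested on simulated data. The precision is limited by the 3 arrays a group.

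The members and lists were chosen with earlier results of these data known. Of each comparison the members that passed are named, otherwise those of smallest p, up to 5 per role, and of other lists up to 3, with more named after their values were seen. Alternatives were the added constant, normalization, filter, variance model, probe set rule, groups fitted, array weights, a replicate block and each array left out.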

Additional observations from a re-analysis of the deposited data

How the results depend on the processing

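With all 9 arrays 0, 1 and 0 members passed in model over control, treatment over control and induced over control. Leaving out each array in turn gave 0 to 13, 0 to 6 and 0 to 14, the highest each time without control 43. Calls over all 10973 genes without control 43 were 1388, 721 and 1247. With array weights, chosen after seeing the data and estimated gene by gene because the planned estimate did not converge and was not run, 8, 9 and 14 passed, and calls over all 10973 genes were 860, 1279 and 1412, against 3, 56 and 63 with all 9 arrays unweighted. In treatment over control 0 passed under a 60th percentile filter, where Tm6sf2 was no longer tested, with only the groups compared in the fit, and with the replicate block. For that comparison 0 also passed without model 22, without any 1 treatment array and without control 41 or 42. The adjusted p of Tm6sf2 ran from 0.00663 to 0.104 over the alternatives. No member passed in treatment over model under any alternative. The median over the 33 genes kept its sign in all 4 comparisons. Of 1405 values of single genes under the alternatives, 1335 kept their side of the threshold and direction, 61 newly passed, 8 no longer passed, and 1 changed sign, Abca1 in treatment over control, which ran from -0.84 to 0.064 with 1 array left out, the highest without treatment 32. The labels do not say whether the last digits of the array numbers pair the arrays. Correlations of deviations ran from -0.41 to 0.31 between arrays of the same last digit. Between the others they ran from -0.39 to 0.45. With 3 arrays a group, these values cannot settle whether arrays were paired. Fitting only the groups compared gives no separate value for induced over control. The background of these intensities is not known, and values near the filter threshold of 15.2 to 16.2, such as those of Tm6sf2, Mvd, Hsd17b7 and Nr1h3, are the least certain. The arrays left out keep the genes and probe sets of the full data.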
